A study of Mus musculus with 9 samples.

Results

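Hair cells (HCs) whose 2 *Mir96* copies both carried the Dmdo allele were compared with HCs that still had 1 wild-type copy. The members were the 3 homozygous mutant libraries (mice 43, 46 and 47) and the 3 heterozygous libraries (mice 45, 48 and 51), which made 6 of the 9 libraries of the series. Of the 43808 deposited genes 14821 were compared, those for which 2 or more libraries of the same genotype each held at least 20 reads. Each library came from the sorted cochlear and vestibular HCs of 1 mouse at postnatal day 1 (P1).

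All mice carried *Atoh1/nGFP*, a reporter that puts green fluorescent protein in the nuclei of cells that express *Atoh1*, and cells positive for the reporter and for the epithelial surface protein CD326 were collected. The groups were Mir96Dmdo homozygous mutant and Mir96Dmdo heterozygous. The third genotype of the series, wild-type at *Mir96* with the same reporter, entered the fit for its estimate of the spread between replicates. Its levels and the heterozygous minus wild-type difference are set beside some results. The Dmdo allele came from the C3HeB/FeJ strain and the reporter from C57BL6, so the mice were of mixed background. Cochlear and vestibular HCs were pooled in every library, and in such bulk samples fewer cells of a type and less RNA per cell cannot be told apart.

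MicroRNAs bind messenger RNAs through their seed, a short stretch near the 5′ end that pairs with complementary letters, mostly in 3′ UTRs, and binding lowers the level or the translation of the target. miR-96 is made in the sensory cells of the ear and eye from a cluster shared with miR-182 and miR-183. In HCs it is known for its part in maturation, and mutations of its seed cause progressive hearing loss. The Dmdo allele replaces 1 base of the seed, so a mutant miR-96 both loses its own targets and may gain others. A heterozygous HC holds both forms, and a homozygous mutant HC only the mutant one.

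The mature miR-96 lies on the minus strand of chromosome 6, at chr6:30169506-30169528 of GRCm38. The pair is shown because the comparison turns on this base, which is A7U when counted from the 5′ end of the mature sequence. The seed, from base 2 to base 8, is in capitals, and the sequence is from RefSeq, with the Dmdo base put in by the substitution.
miR-96: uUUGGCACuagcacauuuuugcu
miR-96 with the Dmdo base: uUUGGCUCuagcacauuuuugcu

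The hairpin entry *Mir96* (chr6:30169446-30169551) had 2, 5 and 2 reads in homozygous mutants 43, 46 and 47. In heterozygous 45, 48 and 51 it had 0, 299 and 86 reads. The groups therefore overlapped, with heterozygous 45 at 0. Its log2 fold change (homozygous mutant over heterozygous throughout) was -4.79 with a standard error of 2.20, and it did not pass the test (adjusted p = 0.696, quasi-likelihood test of edgeR). Since Dmdo is a substitution and mature microRNAs were not captured by this protocol, these reads cannot check the genotype labels.

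Total counts were 18175317 to 30932531 in homozygous mutants and 29470207 to 34873964 in heterozygotes. Replicates correlated at Pearson r of 0.756 to 0.846 on log2 CPM (read counts scaled to a common library size) across genes, and homozygous-heterozygous pairs at 0.747 or above. Homozygous mutant 46, the shallowest of the 6, stood apart from the other 5 on the first principal component, which held 34.2% of the variance, and it received the lowest quality weight of the 6 in limma-voom (0.588). Of 9 HC markers, all were present in every library. *Pou4f3*, a transcription factor that HCs need to survive, was at 1246, 1051 and 1226 CPM in the homozygous mutants and 1116, 1078 and 1017 CPM in the heterozygotes. The female transcript *Xist* was at 845 CPM in heterozygous 48 and at most 15.7 CPM in the 5 others, so 1 of the 6 libraries was female. The mouse numbers also divided the groups unevenly, since all 3 homozygous mutants but only 1 heterozygote (45) were numbered 47 or lower. A term for mouse number was therefore partly confounded with genotype. It was set by heterozygous 45 and wild-type 44 against the other mice of their genotypes, so values with this term cannot separate the 2. By the study's methods a homozygous mutant sample had lower RNA integrity than the heterozygous ones, with its mouse number not named there.

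One gene, *Fcrlb*, fell in homozygous mutant HCs, and no gene rose, by edgeR at the threshold used here (10% false discovery rate, 1.5-fold change). The 1 lower call is 0.00675% of the genes tested and the 0 higher calls are 0%. At an unadjusted p under 0.05, 589 genes were lower (3.97%) and 426 were higher (2.87%), and the smallest adjusted p of a higher gene was 0.603. These became 318 lower and 212 higher without heterozygous 48, 353 and 214 without heterozygous 51, and 278 and 320 with mouse number as a term, which turned the balance. The 3 homozygous libraries lay below the 3 heterozygous ones in CPM for 1098 genes (7.41%) and above them for 1048 (7.07%). Other tools called more genes on the same counts. DESeq2, the tool that the study's methods name, called 91 lower (0.614%) and 61 higher (0.412%), and limma-voom with quality weights called 55 lower (0.371%) and 98 higher (0.661%). Both of these called 22 genes lower (0.148%) and 20 higher (0.135%). The median log2 fold change of all genes was 0.0011.

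*Fcrlb* (chr1:170907273-170912941, minus strand), which encodes an Fc receptor-like protein known from B cells, was at 47.7, 22.8 and 39.9 CPM in homozygous mutants 43, 46 and 47, and at 123, 168.5 and 194 CPM in heterozygotes 45, 48 and 51. Every homozygous library lay below every heterozygous one, and the wild-type libraries lay higher still, at 302, 245 and 469 CPM. The log2 fold change was -2.14 with a standard error of 0.33 (edgeR adjusted p = 0.0289, DESeq2 2.44e-06, limma-voom 0.0123). Without homozygous mutant 46, homozygous mutant 47 or heterozygous 51 the edgeR call was lost (adjusted p = 0.165, 0.36 and 0.28), with log2 fold changes between -2.20 and -1.88. With mouse number as a term it was also lost (-1.85, adjusted p = 0.141), as it was when edgeR tested against a fold change of 1.5 (glmTreat, adjusted p = 0.21).

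**Figure D1:**
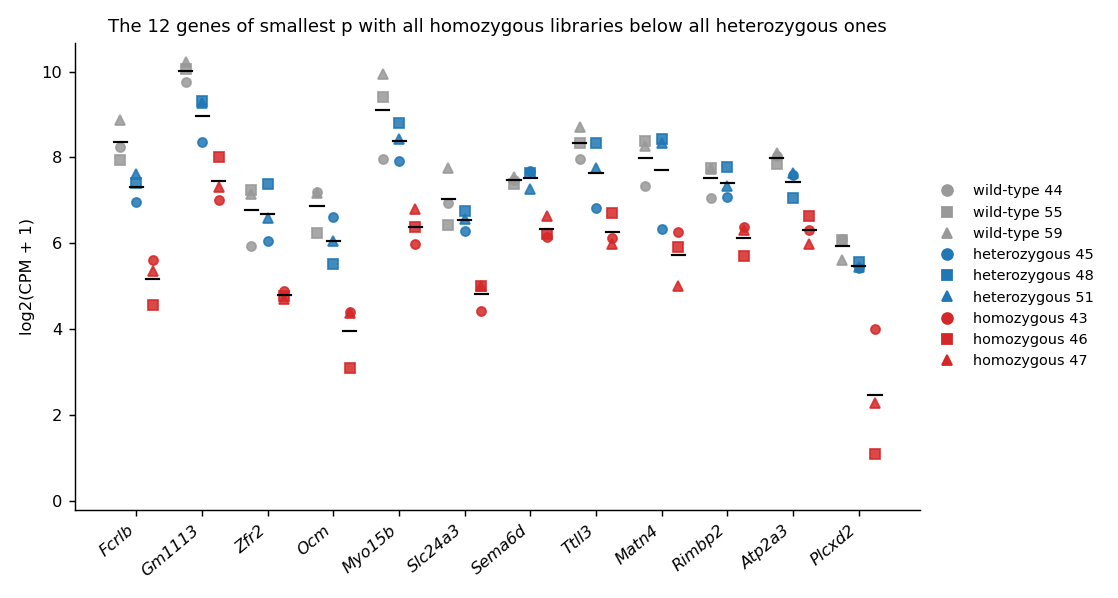
Level of the 12 genes of smallest p whose homozygous mutant libraries lay below all heterozygous ones, as log2(CPM + 1), with 1 point per library (colour for genotype, shape for mouse) and a bar at the mean of the 3 libraries on this scale. *Fcrlb* was highest in wild-type and lowest in homozygous mutant HCs, whereas *Sema6d* and *Zfr2* were at like levels in wild-type and heterozygous HCs.

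Among the genes whose groups did not overlap, the 12 of smallest p in the lower direction included *Ocm*, *Slc24a3* and *Atp2a3* of the calcium list, *Rimbp2* of the ribbon synapse list and *Sema6d* of the reported miR-96 targets. Apart from *Fcrlb* none passed edgeR, so their values are given as levels. *Gm1113*, a protein-coding gene of chromosome 9 with no list here, was at 129, 256 and 158 CPM in homozygous mutants 43, 46 and 47 against 325, 637 and 611 CPM in heterozygotes 45, 48 and 51 (log2 -1.54, standard error 0.29, edgeR adjusted p = 0.279). *Zfr2*, a zinc finger RNA-binding protein, was at 28.7, 26.3 and 25.3 CPM against 65.7, 165 and 96.1 CPM (log2 -2.02, standard error 0.40). The homozygous libraries were close together here and the heterozygotes far apart. *Gm1113* and *Zfr2* were called by both DESeq2 and limma-voom.

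*Ocm* encodes oncomodulin, a calcium buffer of HCs. It was at 20.3, 7.54 and 19.9 CPM in homozygous mutants and 96.8, 44.9 and 65.9 CPM in heterozygotes, in the same mouse order. Its log2 fold change was -2.12 (standard error 0.44), DESeq2 called it (adjusted p = 0.00385) and limma-voom did not (0.145). *Slc24a3*, a potassium-dependent sodium-calcium exchanger, was at 20.7, 31.0 and 31.4 CPM against 77.1, 108 and 93.5 CPM. *Atp2a3*, a calcium pump of the endoplasmic reticulum, was at 78.9, 98.1 and 61.9 CPM against 192, 132 and 199 CPM. DESeq2 and limma-voom both called *Slc24a3* and *Atp2a3*.

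*Myo15b*, a relative of the hair bundle motor *Myo15a*, was at 61.9, 82.5 and 111 CPM in homozygous mutants 43, 46 and 47 and at 242, 448 and 345.5 CPM in heterozygotes 45, 48 and 51 (log2 -2.02, standard error 0.40). It passed edgeR when the 6 libraries were fitted alone. *Myo15b* overlaps *Recql5* on the other strand, and whether strand was used in counting is unknown here. *Ttll3*, a ligase that adds glycine to tubulin, was at 69.1, 103 and 62.8 CPM against 112, 321 and 213 CPM, and overlaps *Arpc4* on its own strand. *Matn4*, a matrix protein, was at 76.2, 59.1 and 31.4 CPM against 79.6, 343 and 322 CPM. In *Matn4* and *Ttll3* heterozygous 45 lay near the homozygous libraries, and with mouse number as a term their log2 fold changes of -2.16 and -1.46 became -0.92 and -0.77.

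*Sema6d*, a membrane-bound semaphorin that guides neurites, was at 69.5, 74.1 and 98.2 CPM in homozygous mutants and 206, 197 and 154 CPM in heterozygotes. Its wild-type libraries were at 177, 167 and 184 CPM, so only the homozygous mutants were low. The log2 fold change was -1.20 (standard error 0.27) between homozygous mutants and heterozygotes and 0.08 (standard error 0.27) between heterozygotes and wild-type, which share the heterozygous libraries. *Rimbp2*, an active zone protein that holds calcium channels near release sites, was at 82.8, 51.4 and 78.5 CPM against 135, 219 and 160 CPM. *Plcxd2*, a phospholipase-like gene, was at 15.2, 1.16 and 3.86 CPM against 41.8, 46.4 and 42.8 CPM. Its heterozygotes were close together and its homozygous mutants far apart, and without homozygous mutant 43 it passed edgeR.

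**Figure D2:**
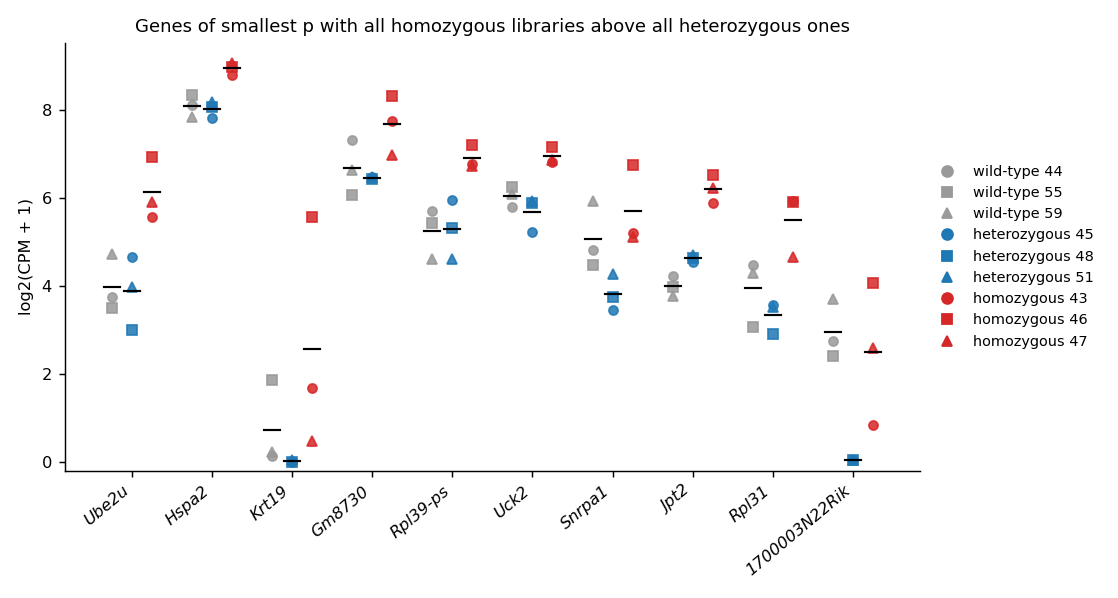
Level of 10 of the 12 genes of smallest p whose homozygous mutant libraries lay above all heterozygous ones, as log2(CPM + 1), with 1 point per library (colour for genotype, shape for mouse) and a bar at the mean of the 3 libraries on this scale. *Hspa2*, *Uck2* and *Jpt2* rested on all 3 homozygous mutants, whereas *Krt19* rested mainly on homozygous mutant 46.

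In the higher direction, no gene passed edgeR, and the 12 genes of smallest p held translation genes, a heat shock gene, a nucleotide kinase and markers of other cell types. *Hspa2*, of the heat shock protein 70 family, was the tightest of them, at 442, 501 and 539 CPM in homozygous mutants 43, 46 and 47 and 224, 269 and 288 CPM in heterozygotes 45, 48 and 51 (log2 0.93, standard error 0.24, edgeR adjusted p = 0.672). *Uck2*, a uridine-cytidine kinase, was at 111, 143 and 115 CPM against 36.5, 58.5 and 60.2 CPM (log2 1.25, standard error 0.33). *Jpt2*, a microtubule-associated protein, was at 57.8, 91.5 and 73.9 CPM against 22.4, 23.9 and 25.2 CPM (log2 1.64, standard error 0.44). For each of these 3 genes the log2 fold change was 0.83 or more whichever homozygous or heterozygous library was left out and above 1 with mouse number as a term, and DESeq2 and limma-voom both called them.

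*Rpl31* encodes a protein of the large ribosomal subunit and overlaps *Tbc1d8* on the other strand. It was at 60.2, 58.8 and 24.2 CPM in homozygous mutants and 10.8, 6.54 and 10.4 CPM in heterozygotes. *Gm8730* and *Rpl39-ps*, both annotated as processed pseudogenes, were at 124 to 319 CPM against 85.8 to 88.0 CPM and at 105 to 146 CPM against 23.5 to 61.3 CPM. Reads of ribosomal protein genes and their near-identical copies can be assigned to either, so single members of this kind are uncertain. *Ube2u*, a ubiquitin-conjugating enzyme, was at 46.1, 120 and 59.4 CPM against 24.4, 6.96 and 14.7 CPM, and *Snrpa1*, of the U2 spliceosome particle, was at 36.1, 107 and 33.6 CPM against 9.96, 12.4 and 18.3 CPM. Homozygous mutant 46 was the highest library for both.

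Other members of the 12 were absent or nearly absent from heterozygotes. *Krt19*, a keratin of nonsensory epithelium, was at 2.18, 46.5 and 0.38 CPM in homozygous mutants 43, 46 and 47 and at 0, 0 and 0.0278 CPM in heterozygotes. *1700003N22Rik*, annotated as a processed pseudogene, was at 0.797, 15.8 and 5.03 CPM against 0.0278 to 0.0326 CPM, yet was at 4.29 to 12.1 CPM in the wild-type libraries. A gene of this kind entered the test only through the genotype in which it was present.

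Sites were then looked up in the longest annotated 3′ UTR of each gene, to see whether the genes with the clearest separation hold matches to either seed. Matches to the wild-type seed were GTGCCAAA (8mer), GTGCCAA (7mer-m8) and TGCCAAA (7mer-A1), and matches to the Dmdo seed were GAGCCAAA, GAGCCAA and AGCCAAA, on the transcript strand only, where an 8mer contains both 7mers. A match is a run of letters and not evidence of binding. Of the 12 genes in the higher direction 9 had an annotated 3′ UTR, of which 3 held a wild-type match and 0 a Dmdo match. Of the 12 in the lower direction 10 had one, of which 2 held a wild-type match and 3 a Dmdo match. Over all 12776 tested protein-coding genes with a 3′ UTR, 19.8% held a wild-type match and 19.4% a Dmdo match.

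The sites below, in GENCODE vM21 3′ UTRs on GRCm38, show the match in capitals with 8 bases on each side. They are the wild-type matches of *Jpt2* (chr17:24943157-24943180, minus strand), *Uck2* (chr1:167224365-167224388, minus strand) and *Hspa2* (chr12:76406532-76406554, plus strand), which were higher, and the Dmdo matches of *Sema6d* (chr2:124665411-124665433, plus strand), *Rimbp2* (chr5:128760365-128760387, minus strand) and *Plcxd2* (chr16:45964523-45964545, minus strand), which were lower. *Rimbp2* and *Plcxd2* each also hold 2 wild-type 7mer-A1 matches, not shown.
Jpt2: cacagtagGTGCCAAAaatgtcct
Uck2: gcttccagGTGCCAAAccacttcg
Hspa2: atgtccttGTGCCAAgtaagatc
Sema6d: aaacaagtAGCCAAAgaaactct
Rimbp2: catggtgaGAGCCAAgacaaaac
Plcxd2: ctcctatgGAGCCAAgaaccagg

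Genes with a 3′ UTR were then described by seed class. The 398 genes with a wild-type 8mer had a median log2 fold change of 0.106, with 14 higher (3.52%) and 8 lower (2.01%) at an unadjusted p under 0.05, and the 2133 genes with only a wild-type 7mer had a median of -0.04. The 417 genes with a Dmdo 8mer had a median of -0.107, with 6 higher (1.44%) and 22 lower (5.28%), and the 2066 with only a Dmdo 7mer had a median of -0.056. The 8578 genes with neither had a median of 0.005, with 2.42% higher and 3.94% lower. For the heterozygous minus wild-type difference, which shares the heterozygous libraries, the medians were -0.004 for wild-type 8mers, -0.254 for Dmdo 8mers and -0.045 for neither. The wild-type 8mer medians were 0.067, 0.155 and 0.131 in homozygous mutants 43, 46 and 47 relative to the heterozygous mean and -0.056, 0.078 and 0.054 in heterozygotes 45, 48 and 51, so homozygous mutant 43 lay below heterozygous 48. The Dmdo 8mer medians were -0.14, -0.064 and -0.128 in homozygous mutants and -0.016, 0.027 and 0.064 in heterozygotes, in the same order, and did not overlap.

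The seed class values changed when single libraries were left out and with mouse number as a term. The 22 lower Dmdo 8mer genes became 5 without heterozygous 48, 13 without heterozygous 51, and 11 (with 9 higher and a median of 0.004) with mouse number as a term. The 14 higher wild-type 8mer genes became 7 without homozygous mutant 46, 6 without heterozygous 51, and 23 with mouse number as a term. The wild-type 8mer median became 0.05 without homozygous mutant 46 and 0.264 with mouse number as a term.

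Long and short transcripts also differed. Protein-coding genes in the shortest quartile of longest transcript (293 to 2289 bases) had a median log2 fold change of 0.188, and those in the longest quartile (4952 bases or more) had -0.116. At an unadjusted p under 0.05, 176 of 3205 genes in the longest quartile were lower and 43 higher. In the shortest, 77 of 3207 were lower and 146 higher (3.97% and 2.87% of all genes). The genes with 8mers had longer 3′ UTRs (medians of 2747 and 2697 bases for the wild-type and Dmdo seeds) than those with neither (836 bases). By quartile of 3′ UTR length from short to long, genes with any wild-type match had medians of 0.077, 0.112, -0.015 and -0.056, and those without had 0.104, -0.01, -0.06 and -0.081, so the match was on the lower side only in the shortest quartile. In the shortest quartile of longest transcript, homozygous mutant 46 (0.058) lay below heterozygous 45 (0.138), so the groups overlapped. Dmdo matches were not divided by length, and the part of length in these results was not tested.

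**Figure D3:**
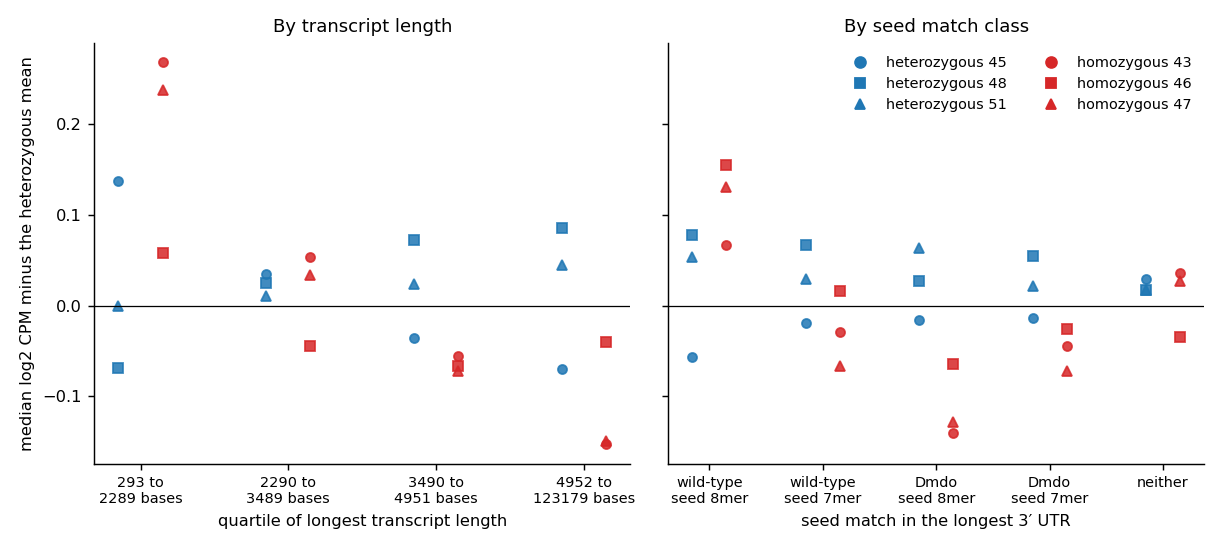
Median log2 CPM relative to the heterozygous mean in each of the 6 libraries, for protein-coding genes by quartile of longest transcript (left) and for genes by seed match in the longest 3′ UTR (right), with 1 point per library. Short transcripts were highest in homozygous mutants 43 and 47 (0.269 and 0.238), with heterozygous 45 (0.138) between these and the other heterozygotes.

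No gene reported as a miR-96 target passed edgeR. Of 16 tested, 1 (*Sema6d*) was lower and 0 higher at an unadjusted p under 0.05 (3.97% and 2.87% of all genes). The median log2 fold change was -0.42, which became 0.36 with mouse number as a term, -0.17 without heterozygous 48 and -0.20 without heterozygous 51. The list medians of homozygous mutant 46 (-0.07) and heterozygous 45 (-0.175) overlapped. *Ryk*, a Wnt receptor, was at 97.2, 107 and 63.1 CPM in homozygous mutants and 68.6, 67.2 and 45.7 CPM in heterozygotes. *Nr3c1*, the glucocorticoid receptor, was at 4.78, 0.385 and 2.09 CPM against 7.08 to 13.8 CPM. Both hold a wild-type match, and of the pair *Nr3c1* alone had groups that did not overlap, in the lower direction.

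Genes of the HC synapse lay mostly below the heterozygous level. Of 27 ribbon synapse and exocytosis genes, 25 had a log2 fold change below 0, 12 had homozygous libraries all below the heterozygous ones, and 7 were lower and 0 higher at an unadjusted p under 0.05. Over all genes tested, 7.41% did not overlap in this direction and 3.97% were lower at that p. None of the 27 passed edgeR, and their median was -0.51 against 0.0011 for all genes. The list medians were -0.74, -0.55 and -0.39 in homozygous mutants 43, 46 and 47 relative to the heterozygous mean and -0.14, 0.10 and 0.08 in heterozygotes 45, 48 and 51, so the groups did not overlap. *Slc17a8*, the glutamate transporter of inner HC vesicles, was at 380, 385 and 504 CPM against 792, 680 and 731 CPM (log2 -0.80, standard error 0.25). *Stx1a* and *Vamp2*, which belong to the membrane fusion machinery, were at 13.2 to 34.1 CPM against 48.5 to 71.5 CPM and at 72.9 to 115 CPM against 136 to 209 CPM. *Otof*, the calcium sensor of HC release, was at 1749, 3083 and 2612 CPM against 2785, 5473 and 4301 CPM, and overlapped because of heterozygous 45. With mouse number as a term the list median was -0.22 and 2 members had p under 0.05, and without heterozygous 48 it was -0.49 with 3 lower.

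The hair bundle is the mechanosensitive organelle of HCs, and its genes were divided. Among 16 genes of the tip links, ankle links and their anchors, 8 were lower and 0 higher at an unadjusted p under 0.05. All genes tested gave 3.97% lower and 2.87% higher at that p. The list median was -0.55 (-0.22 with mouse number as a term, with 2 lower). Without heterozygous 48, 5 were lower, and the list median of homozygous mutant 47 (-0.23) lay above that of heterozygous 45 (-0.34). *Pdzd7*, a scaffold of the ankle links, was at 127, 53.0 and 164 CPM in homozygous mutants and 183.5, 336 and 231 CPM in heterozygotes. *Strc*, which links stereocilia tops, was at 60.8, 56.5 and 97.4 CPM against 97.7, 311 and 223 CPM. *Loxhd1*, a deafness gene of the bundle surface, was at 227, 384 and 369 CPM against 411, 790 and 685 CPM. In *Strc* and *Loxhd1* heterozygous 45 lay next to the homozygous libraries, and with mouse number as a term their log2 fold changes of -1.56 and -0.94 became -0.33 and -0.30.

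The 9 mechanotransduction genes had a median of -0.04, which became 0.10 without homozygous mutant 46 and 0.08 without heterozygous 45. *Tmc2*, the early channel subunit, was at 24.4, 15.9 and 33.4 CPM against 51.5, 46.4 and 62.2 CPM, and *Tomt*, which brings the channel to the bundle, was at 142, 128 and 177 CPM against 277, 254 and 194 CPM. The later subunit *Tmc1* was at 45.7 to 55.7 CPM against 45.6 to 81.7 CPM and *Tmie* at 145 to 257 CPM against 174 to 200 CPM, so both overlapped. Among 27 actin and myosin genes, 3 were lower and 1 higher at an unadjusted p under 0.05 (3.97% and 2.87% of all genes). Their median was -0.17. The 3 became 0 without heterozygous 48, 1 without heterozygous 51 or homozygous mutant 43, and 5 without heterozygous 45. The actin bundler *Espn* was at 554, 690 and 661.5 CPM against 747, 1006 and 1021 CPM, while *Tprn*, of the stereocilia base, was at 134, 142 and 168 CPM against 122, 76.1 and 74.9 CPM. *Myo15a*, which carries cargo to stereocilia tips, was at 363.5, 457 and 715 CPM against 596, 1552 and 1026 CPM and overlapped.

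Calcium handling genes outside those already named included *Calb1*, the buffer calbindin, at 126, 39.4 and 131.5 CPM against 341, 200.5 and 245 CPM, and *Atp2b2*, the calcium pump of stereocilia, at 176, 145 and 201 CPM against 198, 416 and 426 CPM. Of the 17 tested, 5 were lower and 1 higher at an unadjusted p under 0.05 (3.97% and 2.87% of all genes). The median of the 17 was -0.37. The 1 higher was *S100a1*, at 2525, 2555 and 2324 CPM against 2114, 1209 and 1312 CPM, without overlap. Without heterozygous 48 or 51, or with mouse number as a term, 0 were higher. *Pvalb*, another buffer, was at 763, 376 and 820 CPM against 530, 322 and 354 CPM. It overlapped and was not counted as higher. Of 25 ion channel and receptor genes 1 was lower and 0 higher, near the 3.97% lower over all genes. The list median was -0.17 (-0.03 without heterozygous 48, -0.04 without 51). The lower gene was *Kcna10*, a potassium channel subunit, at 67.4, 99.8 and 101 CPM against 139.5, 152 and 199 CPM.

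Of 17 inner and outer HC genes 7 were lower and 0 higher at an unadjusted p under 0.05 (3.97% and 2.87% of all genes). Their median was -0.61 (-0.21 with mouse number as a term, with 5 lower). Without homozygous mutant 43, 4 were lower. *Strip2*, an outer HC gene, was at 43.3, 4.40 and 30.9 CPM against 114, 96.7 and 99.7 CPM. Of 13 vestibular HC genes 6 were lower and 0 higher, with a median of -0.10, and 3 were lower without homozygous mutant 43 or without 47. The vestibular median became -0.48 without homozygous mutant 47, -0.29 without 46, -0.21 without heterozygous 48 and -0.26 with mouse number as a term, and its per-library medians overlapped. *Spp1*, osteopontin, was at 489, 489 and 699 CPM against 1284, 641 and 1112 CPM, which overlapped through heterozygous 48. *Nxph3* was at 0, 0.11 and 0 CPM against 6.12, 4.27 and 3.03 CPM. It is 1 of the 6 lower vestibular genes and entered the test only through the heterozygotes. The lists share members. *Ocm* and *Calb1* are in the vestibular and calcium lists, *Ocm* and *Atp2a3* in the calcium and the inner and outer HC lists, and *Slc17a8* in the synapse and the inner and outer HC lists.

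Of 25 HC transcription factors 3 were lower and 0 higher at an unadjusted p under 0.05 (3.97% and 2.87% of all genes). Their median was -0.26 (0.03 with mouse number as a term). The 3 became 1 without homozygous mutant 46, heterozygous 48 or heterozygous 51 and 5 without heterozygous 45, and the median became -0.08 without heterozygous 48. *Skor2* was at 71.8, 25.9 and 72.7 CPM against 146, 137 and 128 CPM, and *Gfi1*, a repressor of neuronal genes in HCs, was at 537, 484 and 595 CPM against 890, 659 and 640 CPM. *Gfi1* was not among the 3. Beside *Skor2*, these were *Zfp503* and *Sall1*, at 10.6 to 45.7 CPM against 28.8 to 88.7 CPM and at 76.4 to 160 CPM against 156 to 236 CPM, with overlap. Among 21 genes of neuronal splicing and cytoskeleton 3 were lower and 0 higher, with a median of -0.09. The 3 became 1 without homozygous mutant 46 or heterozygous 48, 5 without heterozygous 45, and 0 (with 2 higher) with mouse number as a term, and the median was 0.08 without heterozygous 45. *Srrm4*, the splicing factor of neuronal microexons in HCs, was at 92.9, 88.2 and 121 CPM against 117, 220 and 160 CPM. The kinesins *Kif1a* and *Kif21b* were at 127.5 to 235 CPM against 227 to 431.5 CPM and at 10.8 to 49.5 CPM against 44.7 to 118 CPM. All 3 overlapped by 1 library.

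Cytosolic ribosomal protein genes were the largest group on the higher side. Of 84 tested, 75 had a log2 fold change above 0, 34 had homozygous libraries all above the heterozygous ones, and 26 were higher and 0 lower at an unadjusted p under 0.05. Of all genes tested, 7.07% lay fully above and 2.87% were higher at that p. None of the 84 passed edgeR, while limma-voom called 19 and DESeq2 called 4 of them higher (0.661% and 0.412% of all genes). Their median was 0.69 between homozygous mutants and heterozygotes and 0.09 between heterozygotes and wild-type. *Rpl15* was at 112, 120 and 100 CPM against 55, 44.8 and 40.6 CPM (log2 1.24, standard error 0.36), and *Rpl22* was at 447, 371 and 460 CPM against 305, 182 and 202 CPM (log2 0.89, standard error 0.26). The list medians relative to the heterozygous mean were 0.82, 0.63 and 0.73 in homozygous mutants 43, 46 and 47, and 0.43, -0.26 and -0.15 in heterozygotes 45, 48 and 51. Heterozygous 45 lay nearer to the homozygous mutants than to the other heterozygotes. With mouse number as a term the median was 0.21 with 4 members at p under 0.05, and without heterozygous 48 or 51 it was 0.57 with 8 and 0.56 with 9. Without homozygous mutant 43, 16 members had p under 0.05.

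Genes of the respiratory chain lay the same way with a smaller difference. Of 75 nuclear oxidative phosphorylation genes, 7 were higher and 1 lower at an unadjusted p under 0.05 (2.87% and 3.97% of all genes). In 18 the homozygous libraries all lay above the heterozygous ones (7.07% of all genes), and the list median was 0.40. The list medians were 0.53, 0.37 and 0.475 in homozygous mutants and 0.39, -0.28 and -0.07 in heterozygotes, so heterozygous 45 lay above homozygous mutant 46. With mouse number as a term the median was -0.02 with 0 members at p under 0.05. The 7 higher members became 20 without heterozygous 45, 0 without 48 or without 51, and 3 without homozygous mutant 47 or 4 without 46. *Ndufa6*, of complex I, was at 220, 204 and 165 CPM against 154, 88.1 and 82.6 CPM, *Ndufb9*, of the same complex, was at 272, 336 and 303 CPM against 246, 130 and 159 CPM, and *Uqcr11*, of complex III, was at 96.5, 137 and 110 CPM against 90.8, 33.0 and 52.0 CPM. Of the 3 heterozygotes, 45 was nearest to the homozygous mutants in each. *Ndufb4*, the 1 lower member, was at 0.055 CPM or less in homozygous mutants and 1.30 to 4.48 CPM in heterozygotes. It entered the test only through the heterozygotes. The 7 mitochondrially encoded genes had a median of 0.38, with a heterozygous minus wild-type median of 0.38, and 0 members at p under 0.05. Heterozygous 45 (0.51) lay above homozygous mutant 43 (0.38) in their list medians, with *mt-Nd1* at 1578, 1916 and 1426 CPM against 1687, 743 and 874 CPM.

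**Figure D4:**
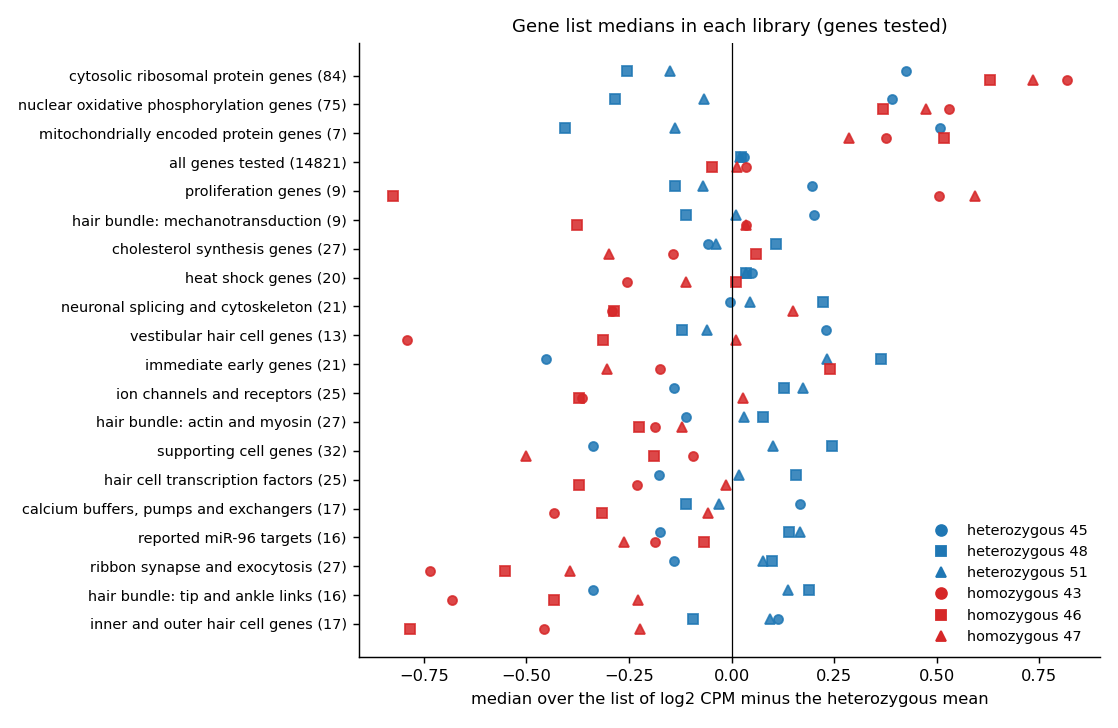
Median of log2 CPM minus the heterozygous mean for each gene list (number tested in brackets) in each of the 6 libraries, with 1 point per library (colour for genotype, shape for mouse). Ribosomal protein genes were above 0.6 in all 3 homozygous mutants and ribbon synapse genes below -0.3, and heterozygous 45 lay on the homozygous side of the other heterozygotes in both.

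Stress, sterol and cell cycle genes showed single members and no list-wide direction. Of 20 heat shock genes 1 was higher (*Hspa2*) and 3 lower at an unadjusted p under 0.05 (2.87% and 3.97% of all genes). Their median was -0.09. *Hspa5*, the chaperone of the endoplasmic reticulum, was at 357, 376 and 292 CPM against 546, 622 and 673 CPM (log2 -0.84, standard error 0.23), and DESeq2 and limma-voom both called it. *Hsph1* was at 157 to 175 CPM against 206 to 266 CPM, and *Hspa1a*, which has a near-identical copy, was at 117 CPM in heterozygous 45 and at most 2.81 CPM in the other 5 libraries. *Hspa1a*, 1 of the 3 lower, entered the test only through the heterozygotes. Of 27 cholesterol genes 1 was lower and 1 higher, near the shares over all genes, with a median of -0.07. The lower one was *Srebf2*, the regulator of sterol synthesis, at 211, 238 and 224 CPM against 343, 449 and 354 CPM, with no overlap. Of 21 immediate early genes 1 was lower and 0 higher (median -0.12), which became 0 lower and 5 higher (median 0.39) with mouse number as a term. Of 9 proliferation genes 1 was lower and 0 higher, with a median of -0.03 that ran from -0.11 to 0.71 as single libraries were left out. The lower one was the mitotic kinase *Plk1*, at 0.22 CPM or less against 1.37 to 4.04 CPM. *Plk1* too entered the test only through the heterozygotes.

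Markers of other cell types were uneven across the homozygous libraries. Summed over 10 mesenchyme markers the level was 168, 1072 and 261 CPM in homozygous mutants 43, 46 and 47 and 257, 284 and 195 CPM in heterozygotes 45, 48 and 51, and over 8 nonsensory epithelium markers it was 564, 1241 and 344 CPM against 375, 542 and 529 CPM. Homozygous mutant 46 was the highest in both. The collagens *Col3a1* and *Col1a2* were at 216 and 437 CPM in homozygous mutant 46 and at most 24.8 and 111 CPM in the other 5. *Oc90*, of the otoconia, was at 305, 758 and 142 CPM against 177, 272 and 253 CPM, and *Krt8* at 93.5, 292 and 95.8 CPM against 62.9, 124 and 130 CPM. Without homozygous mutant 46 the log2 fold changes of *Oc90* and *Krt8* were -0.06 and -0.15 in place of 0.78 and 0.60.

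Schwann cell markers summed to 111, 297 and 183 CPM in homozygous mutants and 133, 85.1 and 114 CPM in heterozygotes, over 7 genes. *Mbp* was at 20.2, 128 and 34.2 CPM against 18.7, 19.4 and 10.5 CPM, and *Pmp22* at 0.0346, 5.67 and 37.0 CPM against at most 0.0597 CPM. Both encode myelin proteins. Neuron markers summed to 444 to 537 CPM against 421 to 591 CPM, macrophage markers to 0.165 to 7.47 CPM against 2.60 to 9.09 CPM, melanocyte markers to 5.32 to 14.0 CPM against 6.87 to 19.8 CPM (*Dct* at 9.03 CPM in homozygous mutant 46 and at 0 in all 3 heterozygotes), and endothelial markers to at most 20.6 CPM, in homozygous mutant 46. Red blood cell markers were listed at 0. Their part in the higher genes was not tested, but the ribosomal median was 0.72 and the synapse median -0.46 without homozygous mutant 46.

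HC markers summed to 8052, 8290 and 9553 CPM in homozygous mutants and 9090, 12935 and 11271 CPM in heterozygotes, which overlapped through heterozygous 45. *Myo7a*, the Usher syndrome myosin, was at 661, 538 and 905 CPM against 783, 1331 and 1130 CPM. The 32 supporting cell genes summed to 3887, 4368 and 3171 CPM against 3307, 4671 and 4486 CPM. Of these, 1 was higher and 2 lower at an unadjusted p under 0.05 (2.87% and 3.97% of all genes). The higher one, *Epyc*, a matrix gene, reached 154 CPM in homozygous mutant 46, with the 5 others at 23.1 CPM or less. *Jag1*, a Notch ligand, was at 215, 140 and 114.5 CPM against 176, 416 and 293 CPM, *Ngfr* was at 0.0693 CPM or less against 1.63 to 7.91 CPM, and the cell cycle inhibitor *Cdkn1b*, whose 3′ UTR holds a Dmdo 8mer, was at 97.9, 73.8 and 75.2 CPM against 137, 116 and 106 CPM. *Ngfr*, 1 of the 2 lower, entered the test only through the heterozygotes.

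**Figure D5:**
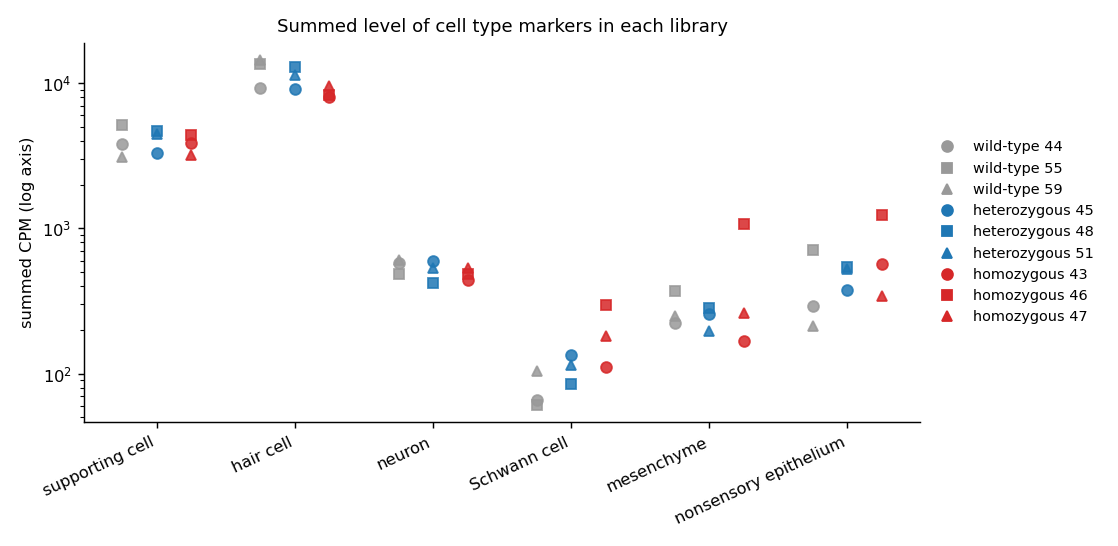
Summed CPM (log axis) of the markers of 6 cell types in each of the 9 libraries, with 1 point per library (colour for genotype, shape for mouse). HC markers were the most abundant set in every library, and mesenchyme markers reached 1072 CPM in homozygous mutant 46 against at most 370 CPM in the other 8.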

How the data were processed

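RNA of sorted P1 HCs was sequenced in 9 libraries, 1 per mouse. Alignment to GRCm38 by the authors used HISAT2 2.0.4 and counting used HTSeq, with its version and strand setting not stated. They deposited raw, unnormalized counts for 43808 Ensembl genes, and these authors' counts were the input here. The kit kept strand. Libraries were assigned to genotype and mouse through their labels. Litter and sex are not stated for any library, and RNA integrity is stated without mouse numbers.

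Genes for which 2 or more libraries of a compared genotype each held at least 20 reads were fitted with the quasi-likelihood test of edgeR 4.0.16 (TMM, robust dispersion, all 9 libraries, no covariate) on the contrast homozygous mutant minus heterozygous, with Benjamini-Hochberg adjustment over all 14821 genes. The threshold for a call was a 10% false discovery rate with a 1.5-fold change. Adjusted p-values are from edgeR unless DESeq2 1.42.0 or limma-voom (limma 3.58.1) is named. CPM used TMM library sizes. Per-library medians use log2 CPM with a prior count of 2. The chi-square of counts between replicates of the homozygous or the heterozygous genotype was 104 or more per gene. None of these pairs therefore held the same library, and other pairs were not checked in this way. The p-values rest on the spread between mice of the same genotype over all 9 libraries, with information shared across genes.

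The genes named were the called gene, the 12 of smallest p in each direction without overlap in CPM (leaving out *Xist* and Y-linked genes), up to 4 members of each list, *Mir96* and the 5 of smallest p per direction called by both DESeq2 and limma-voom. *Pou4f3* and *Xist* were named as checks of the libraries, and *S100a1* as the 1 higher member of the calcium list. Some genes that these rules choose are not reported here. The comparison, lists and rules were chosen with earlier results of these data known, so no list is independent evidence. Lists are described by counts and medians, without a set test. The fits were also run on simulated data, with the outcome not reported here. Alternatives covered DESeq2, limma-voom, the 6 libraries alone, other size factors and filters, other thresholds, protein-coding genes, mouse number (47 or lower against the rest) as a term, and each library left out. Tables were made with R 4.3.3 and Python 3.11.15.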

Additional observations from a re-analysis of the deposited data

How the results depend on the processing

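The 1 call became 152 with DESeq2, 153 with limma-voom, 2 with the 6 libraries alone, 68 when genes of low count were kept, and 0 with glmTreat against a fold change of 1.5 or with mouse number as a term. It stayed at 1 with median-of-ratios size factors, library totals, filterByExpr, protein-coding genes, no fold threshold and a 5% false discovery rate. With 1 library left out the count ran from 0 to 6. It was 0 without homozygous mutant 46, homozygous mutant 47 or heterozygous 51, 2 without homozygous mutant 43, 4 without wild-type 44 and 6 without heterozygous 45. The cause was not tested.

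Of 1415 alternative values of 79 of the genes named, 4 reversed. *Mir96* was at 3.15 with mouse number as a term, *Oc90* at -0.06 and *Krt8* at -0.15 without homozygous mutant 46 (ranges with 1 library left out -0.06 to 1.18 and -0.15 to 0.87), and *Krt8* at -0.03 with limma-voom. Another 104 passed the threshold where edgeR had not, mostly with DESeq2, limma-voom or no filter. *Fcrlb* lost it in the settings given above for that gene. Of 493 alternative list and seed class medians, 32 had the other sign, among them nuclear oxidative phosphorylation genes at -0.02 and reported miR-96 targets at 0.36 with mouse number as a term, and mesenchyme markers at -0.24 without homozygous mutant 46. No paired analysis was possible because litter is not stated for any library. With 3 mice a group an exact permutation test of 1 gene cannot go below 0.1, and homozygous mutant 46 had the fewest reads of the 6, so absence of a call is not absence of a difference.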
